A study of Mus musculus with 1115 samples.

Results

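The cells described here are excitatory neurons (ENs) of the mouse cortex at embryonic day 13.5, compared by whether a sorted neuron was positive for a Hes5 reporter. All cells that the deposited cell table places in the class ENs were taken, which gave 25.8% of 1115 cells; the remaining 827 cells were radial glial cells (RGCs) and intermediate progenitor cells (IPCs). Of the ENs, 45 (15.6%) belonged to the reporter-positive sort group (Hes5_GFP) and the rest to the group without GFP (CAG_mRFP). Embryos of the C57BL/6 strain had received, by electroporation in utero, a plasmid in which the CAG promoter, active in most cell types, drives the red protein mRFP and the Hes5 promoter drives GFP. Both sort groups therefore carried the same plasmid and genotype. They were defined by the protein fluorescence at sorting, mRFP with GFP in Hes5_GFP and mRFP without GFP in CAG_mRFP. The number of embryos, the sort thresholds and the time from electroporation to sorting were not stated in the labels.

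Excitatory neurons of the cortex arise from radial glia, the stem cells of the ventricular zone, either directly or through intermediate progenitors that express Eomes (Tbr2). Notch signalling holds radial glia in the stem cell state: the cleaved receptor joins the DNA-binding protein Rbpj and switches on the repressors Hes1 and Hes5, which silence proneural genes such as Neurog2. Hes5 is turned off as cells commit to the neuronal fate, whereas GFP is a stable protein that can remain after its promoter has become silent. The comparison asks whether neurons that carried GFP had the profile of younger neurons.

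The stretch upstream of the mouse Hes5 gene is shown because the reporter reads a promoter of this gene; the labels do not give the fragment used in the plasmid. The RefSeq sequence covers the 250 bases before the start site (GRCm38.p6, chr4:154960673-154960922, plus strand), with the motif GTGGGAA, a form of the Rbpj binding motif, in capitals on either strand.

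Hes5 upstream: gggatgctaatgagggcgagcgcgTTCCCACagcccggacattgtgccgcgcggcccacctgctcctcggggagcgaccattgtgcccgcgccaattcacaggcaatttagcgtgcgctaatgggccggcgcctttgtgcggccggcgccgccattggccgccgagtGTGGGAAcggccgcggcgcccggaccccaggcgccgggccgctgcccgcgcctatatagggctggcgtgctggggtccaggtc

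The motif occurred 2 times in this stretch, beginning at base -226 on the minus strand and at base -83 on the plus strand relative to the start site. Of 32851 upstream windows of the same length in the table, 5.42% held the motif on either strand and 0.161% held it at least 2 times. A match is a description of the letters and not evidence of binding.

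Cells had been sorted on several days, numbered here by date, and ENs of both groups were numerous enough for a comparison on days 3 and 4. Day 3 held 22 Hes5_GFP and 96 CAG_mRFP neurons, and day 4 held 21 Hes5_GFP neurons and, in its earlier and later library preparations, 67 and 60 CAG_mRFP neurons. The earlier days held 2 Hes5_GFP and 20 CAG_mRFP neurons in all. Libraries of these 2 days were prepared on an earlier and a later date, so each day could be split into 2 pairs of sums, 4 pairs in all. On days 3 and 4 each plate held ENs of a single sort group, so plate and group cannot be told apart within a day. The 2 sides of a pair shared day and preparation date, but not always the plate batch in the plate name. In the earlier preparation of day 3, Hes5_GFP neurons came from plates L1B, L2A and L2B and CAG_mRFP neurons from plate L1A. In the later preparation of day 4, they came from plates L2D, L3C and L3D and from plate L2C. The labels name no animal, so that the spread between days and pairs may be technical. Total counts per EN had a median of 251362 in Hes5_GFP and 240175 in CAG_mRFP, with ranges of 62976 to 1049259 and 841 to 1952854. The shallowest plate held the 49 CAG_mRFP neurons of the earlier preparation of day 3 (median 31151 counts), while the Hes5_GFP neurons of that preparation had a median of 242465.5 counts. After thinning to 10000 counts per cell, the median number of genes was 2160 and 2116 in Hes5_GFP neurons of days 3 and 4, against 2069 and 1899 in CAG_mRFP neurons.

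The label was checked against its markers. Neurod6, a transcription factor of cortical excitatory neurons, had a read in 100% of CAG_mRFP and 97.7% of Hes5_GFP neurons of these days. In counts summed over the cells of a day and scaled to a common library total (CPM), Neurod6 stood at 2962 and 3939 CPM in Hes5_GFP neurons of days 3 and 4 and at 3969.8 and 4620.3 CPM in CAG_mRFP neurons. Hes5_GFP RGCs of the same days held 20.6 and 7.31 CPM. Tubb3, the neuronal beta-tubulin, stood at 1639 and 1539 CPM against 1722 and 1544 CPM, and had a read in 97.7% of Hes5_GFP and 98.7% of CAG_mRFP neurons. Both groups thus carried these markers. Markers of other cell types were rare: the measured interneuron markers Dlx1, Dlx2, Dlx5, Gad1 and Gad2 were at 0 in every EN sum, and the summed endothelial, microglial, erythroid and meningeal lists did not pass 2.82 CPM in any of the 8 sums. The summed Cajal-Retzius markers lay between 0 and 118.4 CPM in the Hes5_GFP sums and between 5.95 and 16.9 CPM in the CAG_mRFP sums; in the highest sum, the earlier preparation of day 3, Reln gave 115.5 CPM.

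The reporter transcript was examined first, because it checks the sort. eGFP reads stood at 18.1 CPM on day 3 and 8.86 CPM on day 4 in Hes5_GFP neurons, and at 5.45 and 2.03 CPM in CAG_mRFP neurons. The 4 pairs gave 7.09, 46.8, 0.874 and 12.7 CPM for Hes5_GFP (day 3 earlier and later preparation, then day 4 earlier and later) and 2.55, 5.89, 2.56 and 1.65 CPM for CAG_mRFP. The sum was thus higher in Hes5_GFP on both days and in 3 of 4 pairs, and the groups overlapped. The fitted log2 ratio was 1.87 ± 2.27 (SE), with an adjusted p of 0.999 in edgeR's quasi-likelihood test (unadjusted p = 0.443); adjusted values are Benjamini-Hochberg values over all genes tested. A read of eGFP was found in 8 and 4 Hes5_GFP neurons (36.4% and 19.05%) and in 16 and 11 CAG_mRFP neurons (16.7% and 8.66%). At 10000 counts per cell the shares were 9.09% and 14.3% against 2.22% and 1.57%, a mean difference of 9.79 percentage points, with an exact sign-flip p of 0.5, the smallest that 2 days can give.

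Most GFP-sorted neurons thus had no eGFP read, and the transcript was lower in them than in the progenitors of the same sort gate. Hes5_GFP RGCs held 110.7 and 196.9 CPM of eGFP on days 3 and 4, with a read in 64.8% and 71.2% of cells. Hes5_GFP IPCs held 28.8 and 18.8 CPM, with a read in 38.1% and 39.1%. In CAG_mRFP, RGCs held 0 and 4.90 CPM and IPCs 5.65 and 0.735 CPM. The order RGCs, IPCs, ENs in the Hes5_GFP group was the same on both days, although the 95% exact Clopper-Pearson intervals of the shares of IPCs and ENs overlapped on both days. mRFP, present in both gates, stood at 3459 and 1879.7 CPM in Hes5_GFP neurons and at 1482 and 2135 CPM in CAG_mRFP neurons, higher on one day and lower on the other.

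**Figure D1:**
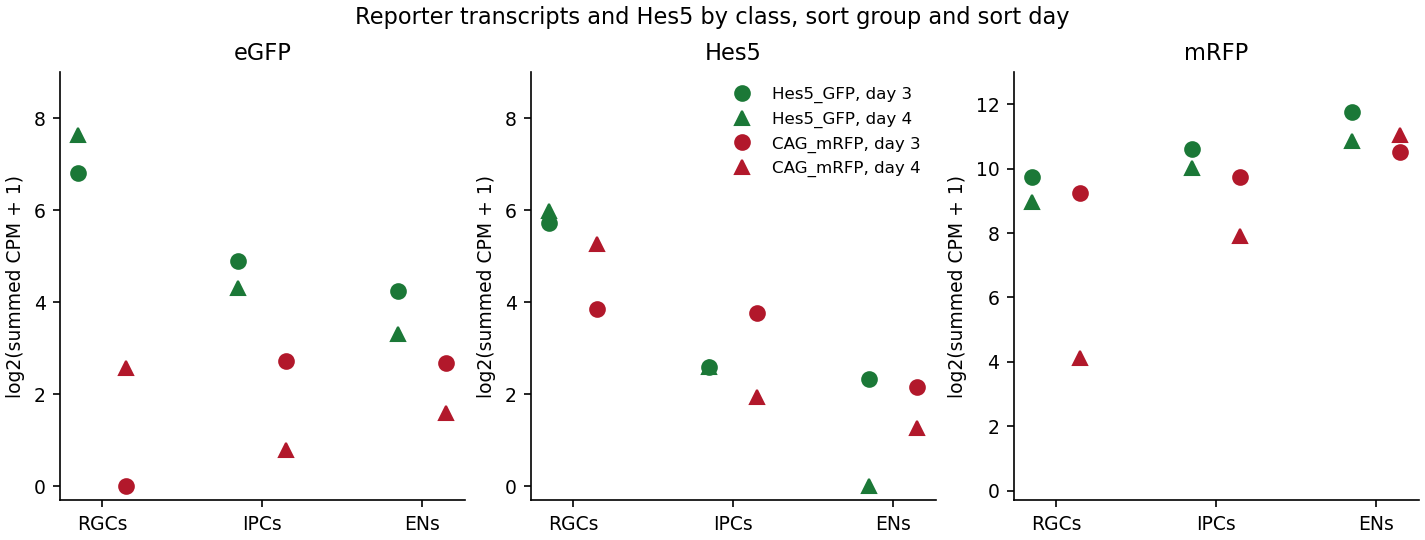
Summed eGFP, Hes5 and mRFP, as log2(CPM + 1), in RGCs, IPCs and ENs of each sort group (colour) and sort day (circle, day 3; triangle, day 4). In the Hes5_GFP group eGFP stepped down from RGCs to IPCs to ENs on both days, and Hes5 did not pass 4.07 CPM in ENs of either group.

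The endogenous Notch targets Hes5 and Hes1 were low in both groups of neurons. Hes5 stood at 4.07 and 0 CPM in Hes5_GFP neurons (2 and 0 cells with a read) and at 3.46 and 1.40 CPM in CAG_mRFP neurons (4 and 4 cells), against 52.2 and 61.9 CPM in Hes5_GFP RGCs. A count of 0 in 21 cells of day 4 still allows a share of up to 16.1% (95% exact interval). Hes1 was at 0 on both days in Hes5_GFP neurons and at 0.113 and 2.72 CPM in CAG_mRFP neurons. Neither gene passed the filter of 5 CPM, so no test was made. Of the 9 Notch receptors and targets listed, 3 were tested, with 1 log2 ratio above 0 and 2 below; Hey1 stood at 112.4 and 113.3 CPM against 143.6 and 113.1 CPM, and Rbpj at 86.4 and 142.5 CPM against 99.1 and 176.7 CPM. The 7 tested ligands and modulators had 2 ratios above 0 and 5 below, and the ligand Dll1 stood at 64.6 and 9.004 CPM against 96.9 and 34.4 CPM. None of these genes was higher or lower in all 4 pairs.

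Across all genes, no difference between the groups of neurons passed the test. Of 10020 genes tested, 0 were called at an adjusted p under 0.05 (0.0%) by edgeR's quasi-likelihood test over the 2 days with the day as a block, and 3.11% had an unadjusted p under 0.05 (1.1% higher in Hes5_GFP and 2.02% lower). With the 4 pairs as units 0 were called and 4.09% had an unadjusted p under 0.05. DESeq2 called 788 genes on the same sums (7.86%), 3.23% higher and 4.63% lower, with 20.9% at an unadjusted p under 0.05. On mean CPM per cell, limma called 0, with 5.71% at an unadjusted p under 0.05. The fit had 1 residual degree of freedom. Ratios below 0 were more frequent, with 40.1% of genes above 0, 59.9% below 0 and a median log2 ratio of -0.19 over all genes, which is the base against which the lists are read. Of the same genes, 3.96% were higher in Hes5_GFP in all 4 pairs and 9.78% were lower in all 4. The sums of the groups did not overlap for 1.27% of genes with Hes5_GFP higher and for 3.99% with it lower. Levels of single genes are therefore values and not calls, and in such sums fewer cells of a subtype cannot be told apart from less RNA per cell.

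Hes5_GFP neurons lay more often in the authors' expression cluster 6 and less often in cluster 5, on both days and in all 4 pairs, though 2 days cannot give a p under 0.5. Cluster 6 was mainly a cluster of intermediate progenitors: 67 of its 89 cells were IPCs (75.3%) and 18 were ENs (20.2%). ENs of cluster 6 made up 4 of 22 Hes5_GFP neurons on day 3 (18.2%, interval 5.19 to 40.3%) and 6 of 21 on day 4 (28.6%, 11.3 to 52.2%). In CAG_mRFP they made up 3 of 96 (3.12%, 0.649 to 8.86%) and, on day 4, 5 cells (3.94%, 1.29 to 8.95%). The share was higher in Hes5_GFP on 2 of 2 days and in 4 of 4 pairs, where it ran from 14.3 to 30% against 2.04 to 5%, with no overlap. The mean difference over days was 19.8 percentage points (SD 6.77, n = 2; exact two-sided sign-flip p = 0.5, the smallest possible). Over the 4 pairs it was 20.6 points (SD 6.16; exact p = 0.125, again the smallest possible). Over all ENs the share was 10 of 45 (22.2%, 11.2 to 37.1%) against 8 cells (3.29%, 1.43 to 6.38%).

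Cluster 5, of which 98.3% of cells were ENs, showed the opposite. It held 5 of 22 and 2 of 21 Hes5_GFP neurons (22.7% and 9.52%) and 36 and 55 CAG_mRFP neurons (37.5% and 43.3%). The share was lower in Hes5_GFP on both days and in 4 of 4 pairs, by 24.3 percentage points on average over days (SD 13.4; exact sign-flip p = 0.5) and by 26.6 points over pairs (SD 13.04; exact p = 0.125). The smallest gap was in the earlier preparation of day 3, with 35.7% against 42.9%. Cluster 2, the largest, held 59.1% and 61.9% of Hes5_GFP neurons and 59.4% and 52.8% of CAG_mRFP neurons, a difference of 4.43 points (SD 6.67; exact p = 1). The clusters were built from the expression of these cells, so a gene that separates clusters is no independent measure of these shares. Seen from the progenitor side, ENs made up 10 of 57 Hes5_GFP cells of cluster 6 (17.5%, 8.75 to 29.9%) and 8 of 32 CAG_mRFP cells (25%, 11.5 to 43.4%), intervals that overlap.

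**Figure D2:**
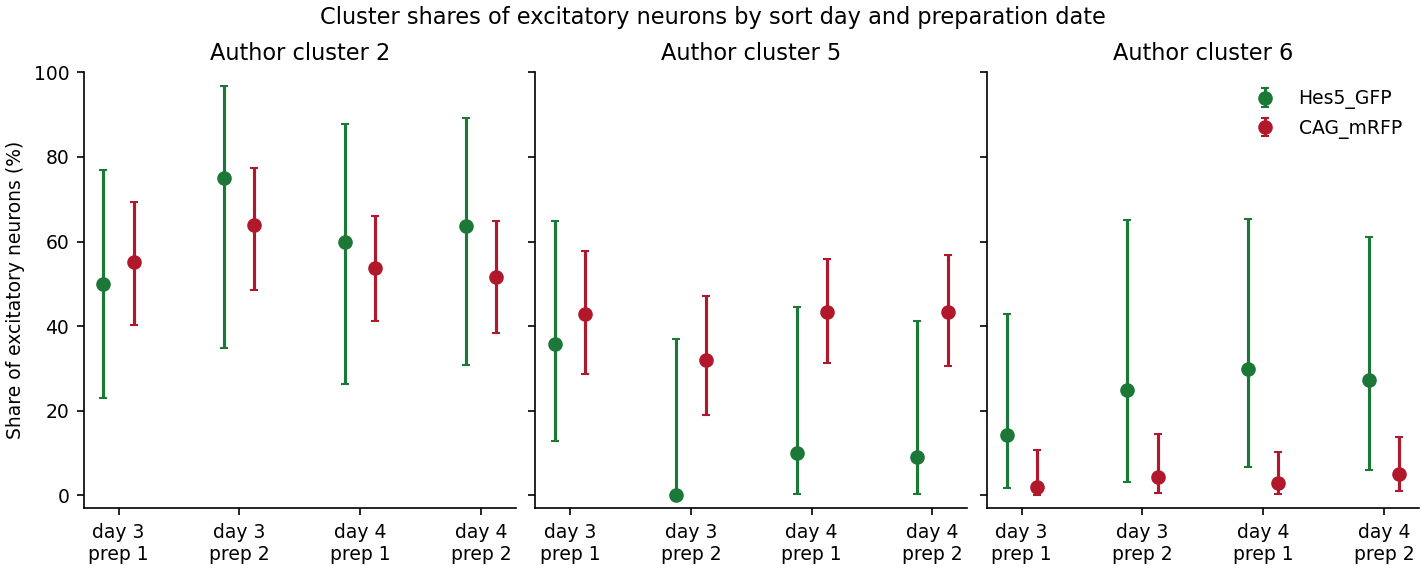
Share of excitatory neurons (%) in the authors' clusters 2, 5 and 6, by sort day and library preparation date (prep 1, earlier; prep 2, later) for each sort group; bars are 95% exact Clopper-Pearson intervals, which cover counting error only. In cluster 6 every Hes5_GFP point (14.3 to 30%) lies above every CAG_mRFP point (2.04 to 5%), and in cluster 5 each Hes5_GFP point lies below the CAG_mRFP point of its pair.

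Nearly every neuron was called G1. Cells outside G1 numbered 0 of 22 and 0 of 21 in Hes5_GFP and 1 and 3 (1.04% and 2.36%) in CAG_mRFP on days 3 and 4; the counts of 0 allow up to 15.4% and 16.1%. Over all ENs they were 2.22% and 2.06%. Of 23 S phase genes tested, 16 had ratios above 0 (median 0.12), and Mcm2, a subunit of the replicative helicase, was higher in 4 of 4 pairs (146.2 and 309.003 CPM against 89.2 and 108.9 CPM). Other well-read S phase genes did not follow throughout. Rrm1 and Mcm7 were each higher in 2 of 4 pairs (log2 ratios 0.61 and -0.09), and Rfc2 was lower in 3 of 4 (-0.61). The 23 G2/M genes had 7 ratios above 0 and 16 below, with a median of -0.70, or 0.60 in G1 neurons alone, so no direction is given. Cenpe and Cenpf, kinetochore genes of mitosis, were at 0 in Hes5_GFP and at 7.93 and 7.82 CPM in CAG_mRFP. Only 1 and 2 CAG_mRFP neurons of days 3 and 4 were called G2M (1.04% and 1.57%), against 0 of 22 and 0 of 21 in Hes5_GFP. With such cells so rare, and reads not independent molecules, the sums of 0 set no minimum fold difference. Which cells carried the reads was not tested. Ccnd2, the cyclin D2 of G1, stood at 1645 and 1335 CPM against 751 and 833 CPM. All 4 Hes5_GFP sums of Ccnd2 (1335 to 2374 CPM) lay above the CAG_mRFP sums (739 to 846 CPM), with a log2 ratio of 0.86 ± 0.23 (adjusted p = 0.999; unadjusted p = 0.0111).

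Markers of progenitors were read as a check on how far the neurons stood from them. The 10 IPC markers had 7 ratios above 0 and 3 below, with a median of 0.36 against -0.19 for all genes. Eomes, which defines intermediate progenitors, stood at 79.5 and 132.6 CPM in Hes5_GFP neurons and at 55.3 and 94.7 CPM in CAG_mRFP neurons. Its sums were higher in 3 of 4 pairs (log2 ratio 0.45 ± 0.45). A read of Eomes was found in 55.8% and 32.3% of cells without thinning, and in 37.2% and 23.5% at 10000 counts per cell. Gadd45g, a growth arrest gene of newly committed cells, had no overlap between its Hes5_GFP sums (252.4, 267.4, 290.5 and 436.7 CPM) and its CAG_mRFP sums (242.7, 207.1, 149.6 and 135.9 CPM). Neurog2, the proneural factor, stood at 57.01 and 3.29 CPM against 9.87 and 9.24 CPM, high on day 3 only. The IPC median was -0.16 without cluster 6, -0.33 in neurons of cluster 2 alone and -0.06 without day 4. In cluster 2 Eomes itself stood at 96.6 CPM in 26 Hes5_GFP neurons and at 119.4 CPM in CAG_mRFP neurons. The share of cells with a read there, without thinning, was higher in Hes5_GFP, at 61.5% against 44.4%.

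Radial glia markers were low in both groups. Of the 14 listed, 9 were tested, with 6 ratios above 0 and 3 below and a median of 0.72, or -0.27 without day 3. Pax6, a radial glia transcription factor, stood at 157.4 and 50.9 CPM against 37.5 and 32.9 CPM and was higher in 4 of 4 pairs, with overlapping sums (log2 ratio 1.30 ± 0.65). The glycolytic enzyme gene Aldoc stood at 31.9 and 28.6 CPM against 0.908 and 7.11 CPM, with no overlap. Sox9, a stem cell factor, stood at 108.7 and 9.004 CPM against 37.5 and 28.7 CPM, higher on day 3 and lower on day 4. Vim, the intermediate filament of radial glia, stood at 197.6 and 64.5 CPM against 153.2 and 190.4 CPM. Summed over the list, radial glia markers held 746 and 286.4 CPM in Hes5_GFP neurons and 282.02 and 351.3 CPM in CAG_mRFP neurons; the part of these cells or reads in the other differences was not tested.

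Genes of newborn neurons did not move as a block. Of 10 listed, 3 ratios were above 0 and 7 below, with a median of -0.30. Neurod1 stood at 456.3 and 705.6 CPM in Hes5_GFP neurons and at 691.9 and 583.4 CPM in CAG_mRFP neurons, lower on day 3 and higher on day 4. Sstr2 and Nrp1 also differed in direction between the days. Neurod4, a proneural factor expressed as progenitors turn into neurons, stood at 84.3 and 248.4 CPM in Hes5_GFP neurons and at 14.8 and 9.57 CPM in CAG_mRFP neurons (mm10 chromosome 10, 130268152 to 130280240, minus strand). Its 4 Hes5_GFP sums were 116.2, 0.641, 134.1 and 303.96 CPM and its CAG_mRFP sums 1.28, 16.8, 10.8 and 8.69 CPM, so that 3 of 4 pairs were higher and the later preparation of day 3 was lower. The log2 ratio was 3.56 ± 0.74 (adjusted p = 0.999; unadjusted p = 0.00361). The reads came mainly from cluster 6, where Neurod4 stood at 687.3 CPM in 10 Hes5_GFP neurons (6 with a read) and 162.5 CPM in 8 CAG_mRFP neurons (3 with a read). The fitted ratio was -0.34 without cluster 6. In cluster 2, however, the pooled level of Neurod4 was higher in Hes5_GFP, at 14.99 against 6.61 CPM, with a read in 19.2% and 4.03% of cells, so no direction is given outside cluster 6. Sox11, which drives early neuronal differentiation, stood at 17890.0 and 13676 CPM against 23021 and 22263 CPM (log2 ratio -0.58 ± 0.15). The netrin receptor gene Unc5d, a gene of multipolar migrating neurons, stood at 31.7 and 51.6 CPM against 102.7 and 138.2 CPM, lower in 4 of 4 pairs with no overlap. The GTPase Rnd2, needed for migration, stood at 221.2 and 162.8 CPM against 227.9 and 319.6 CPM and was lower in 4 of 4 pairs.

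The fitted ratios of maturing neuron genes had a median below that of all genes, and none of these genes passed the test. Of 20 listed genes 18 were tested, 3 with ratios above 0 and 15 below, and the median was -0.75 against -0.19 for all genes. Of these, 0 were higher and 5 were lower in 4 of 4 pairs, against 3.96% and 9.78% of all genes. The summed level of the list was not lower throughout: in the earlier preparation of day 3 it was 3198 CPM in Hes5_GFP and 2677 CPM in CAG_mRFP neurons. The synaptic vesicle fusion protein Snap25 stood at 72.2 and 39.7 CPM in Hes5_GFP neurons and at 145.04 and 159.04 CPM in CAG_mRFP neurons, with no overlap of the 4 sums (log2 ratio -1.55 ± 0.49, adjusted p = 0.999). The splicing regulators Rbfox1 and Rbfox3 (NeuN) stood at 10.6 and 43.2 CPM against 76.5 and 80.97 CPM, and at 47.98 and 54.3 CPM against 126.3 and 97.9 CPM. Ndst3, a heparan sulfate enzyme, stood at 49.6 and 23.01 CPM against 107.2 and 78.7 CPM, and the secretory granule protein Chga at 36.7 and 68.03 CPM against 58.2 and 96.8 CPM. The microtubule genes Map2 and Mapt did not follow: Map2 stood at 827 and 663.3 CPM against 937 and 567.9 CPM, and Mapt at 89.9 and 19.4 CPM against 29.8 and 21.5 CPM. Gria2 stood at 156.9 and 493.1 CPM against 284.4 and 312.8 CPM, and Syt4 at 59.7 and 261.3 CPM against 139.6 and 231.3 CPM. Both were thus lower on day 3 and higher on day 4. Cnr1 stood at 174.2 and 0.429 CPM against 276.7 and 269.9 CPM and was lower in 3 of 4 pairs. Because 6 of the listed genes had been named in earlier results of these cells, the list was also read without them: the 12 genes then tested had a median of -0.71, with 2 lower in 4 of 4 pairs, and on day 3 the summed level of the 14 remaining genes was 2117 CPM in Hes5_GFP and 2032 CPM in CAG_mRFP neurons. The list median stayed below 0 in each alternative fit run, from -1.70 to -0.42, and was -1.13 in neurons of cluster 2 alone, where the median of all genes was -0.38.

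**Figure D3:**
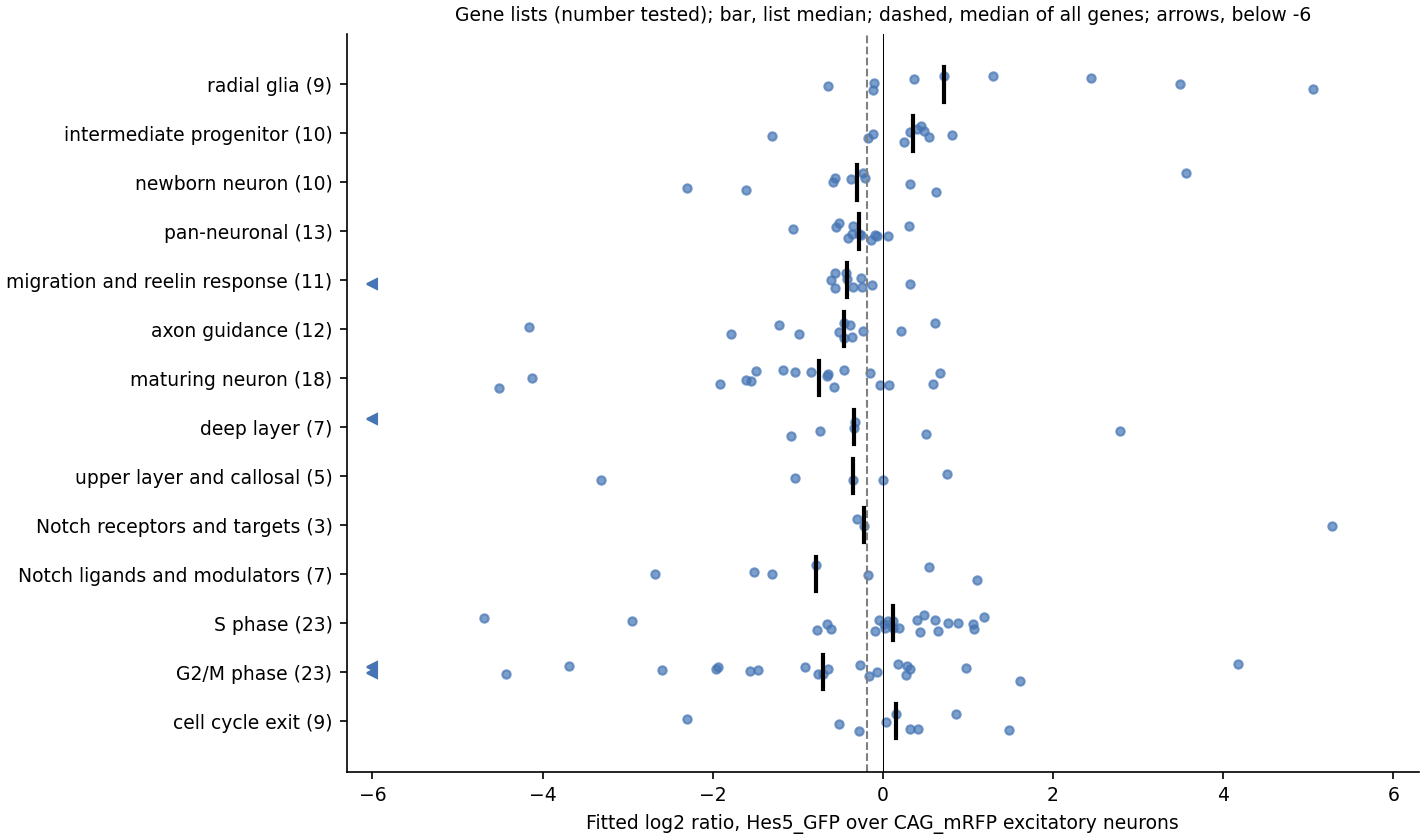
Fitted log2 ratio of Hes5_GFP over CAG_mRFP excitatory neurons for each tested gene of 14 lists (number tested in brackets); black bars are list medians and the dashed line is the median of all genes (-0.19). The median of maturing neuron genes lies at -0.75 and that of IPC markers at 0.36; none of the plotted genes passed the adjusted test, and arrows stand for fitted ratios below -6 of genes at or near 0 in Hes5_GFP.

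Cytoskeletal and layer genes gave smaller differences. The 13 pan-neuronal genes had 2 ratios above 0 and 11 below (median -0.28). Tuba1a, the main alpha-tubulin of young neurons, stood at 5352 and 6206 CPM against 8949 and 7052 CPM with no overlap of the 4 sums, and Dpysl3, which acts in growth cones, at 1012 and 1024 CPM against 1357 and 1517 CPM. In the opposite direction, the RNA-binding Elavl4 stood at 1200.3 and 1570.3 CPM against 981 and 1166 CPM, higher in 4 of 4 pairs. Neurod6, used above as a marker, was lower in 4 of 4 pairs, with a log2 ratio of -0.38 ± 0.17 (adjusted p = 0.999). Of the 7 excitatory neuron markers listed, 2 had ratios above 0 and 5 below (median -0.25). Of these markers, 3, Neurod6 among them, were lower in 4 of 4 pairs, against 9.78% of all genes. The sums of 2 did not overlap, against 3.99% of all genes. The 7 deep layer genes tested had 2 ratios above 0 and 5 below (median -0.34), and the 5 upper layer genes 2 and 3 (median -0.35).

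Single layer factors differed in direction. Bcl11b (Ctip2), a factor of subcerebral projection neurons on chromosome 12 (mm10, 107910403 to 108003602, minus strand), stood at 178.7 and 109.3 CPM in Hes5_GFP neurons and at 330.6 and 246.7 CPM in CAG_mRFP neurons. It was lower in 3 of 4 pairs, the exception being the earlier preparation of day 3 with 219.9 against 212.1 CPM, and the log2 ratio was -1.08 ± 0.31 (adjusted p = 0.999; unadjusted p = 0.0149). Tbr1, the factor of corticothalamic neurons, stood at 152.1 and 92.04 CPM against 83.3 and 77.01 CPM and was higher in 3 of 4 pairs (log2 ratio 0.51 ± 0.45). Its fitted ratio was -0.28 in neurons of cluster 2, where it had a read in 65.4% of Hes5_GFP and 41.9% of CAG_mRFP cells. The pooled level of Tbr1 was lower in Hes5_GFP in cluster 2 (85.98 against 99.9 CPM) and in cluster 6 (8.85 against 11.9 CPM). In cluster 5 it was higher, at 450.1 CPM in 7 Hes5_GFP neurons (6 with a read). The 91 CAG_mRFP neurons there held 60.1 CPM (42 with a read). Cux2, a factor of upper layers, stood at 65.5 and 68.5 CPM against 126.1 and 138.03 CPM, lower in 4 of 4 pairs. Cux1, on the same list, went the other way, at 163.6 and 304.3 CPM against 117.1 and 138.8 CPM. It was higher in 3 of 4 pairs (log2 ratio 0.76). Pou3f2 and Pou3f3 differed in direction between the days.

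Guidance and migration genes had mostly fitted ratios below 0, and none passed the test. Ratios below 0 were found for 10 of 12 axon guidance genes (median -0.46) and 10 of 11 migration genes (median -0.42), against 59.9% of all genes. In each of these lists 2 genes were lower in 4 of 4 pairs, against 9.78% of all genes. Sema3c, a secreted semaphorin gene on chromosome 5 (mm10, 17574281 to 17730268, plus strand), stood at 98.98 and 72.9 CPM against 286.3 and 281.1 CPM. Its Hes5_GFP sums of 123.04, 35.9, 27.1 and 95.2 CPM all lay below the CAG_mRFP sums of 280.9, 287.1, 178.4 and 354.3 CPM (log2 ratio -1.79 ± 0.34, adjusted p = 0.999; unadjusted p = 0.00249). It had no read in cluster 6 in either group, and in cluster 2 it stood at 106.5 against 412.1 CPM. The shares of cluster 2 cells with a read of Sema3c were closer, at 46.2% in Hes5_GFP and 50.8% in CAG_mRFP. The ephrin receptor gene Epha5 stood at 292.2 and 239.7 CPM against 545.6 and 468.7 CPM, also without overlap. Epha3, of the same receptor family, stood at 1487 and 1158 CPM against 1137 and 1048 CPM.

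The genes with the smallest unadjusted p values among well-detected genes are given by rule, 10 in each direction. St18, a zinc finger factor of the Myt1 family on chromosome 1 (mm10, 6487231 to 6860940, plus strand), headed the higher genes. It stood at 656.9 and 413.2 CPM in Hes5_GFP neurons and at 195.7 and 157.2 CPM in CAG_mRFP neurons, with a read in 69.8% and 34.5% of cells. Its Hes5_GFP sums of 804, 271.9, 310.2 and 463.3 CPM all lay above the CAG_mRFP sums of 183.6, 197.5, 133.7 and 173.9 CPM. The log2 ratio was 1.52 ± 0.27 (adjusted p = 0.999; unadjusted p = 0.00191), and it was 1.27 in cluster 2 alone, where 80.8% of Hes5_GFP and 41.9% of CAG_mRFP neurons had a read.

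Of the other 9 higher genes, 3 also had sums that did not overlap, against 1.27% of all genes. These genes were chosen for their small p in the same sums, so this count carries no weight. The ceramide synthase gene Cers5 stood at 201.5 and 126.8 CPM against 35.9 and 32.5 CPM. The sterol transporter gene Abcg1 stood at 164.1 and 300.9 CPM against 49.8 and 107.05 CPM, and the kinesin gene Kif26b at 89.9 and 213.96 CPM against 25.8 and 51.9 CPM. The membrane-cytoskeleton linker gene Ezr stood at 344.2 and 448.4 CPM against 129.7 and 221.996 CPM, the deacetylase gene Hdac4 at 407.6 and 164.8 CPM against 178.7 and 69.9 CPM, and the ubiquitin ligase gene Itch at 251.6 and 202.8 CPM against 115.9 and 55.01 CPM. Ctps2, Zc3h14 and Neurod4 completed the list. Log2 ratios of the 10 genes lay between 1.16 and 3.56. In cluster 2 alone, those of St18, Cers5, Abcg1 and Kif26b were 1.27, 1.13, 1.36 and 1.11, whereas the fitted ratio of Neurod4 was -0.84 although its pooled level there, given above, was higher in Hes5_GFP.

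Of the 10 lower genes, 8 had sums that did not overlap (3.99% of all genes): Sema3c, Cdk12, Id2, Canx, Papss1, Dusp14, Pfn2 and Mob3a. Id2, an inhibitor of basic helix-loop-helix factors, stood at 115.98 and 254.1 CPM against 363.4 and 526.1 CPM, with a read in 53.5% and 77.6% of cells. The endoplasmic reticulum chaperone gene Canx stood at 296.6 and 468.9 CPM against 699.3 and 866 CPM, the transcriptional kinase gene Cdk12 at 31.5 and 50.6 CPM against 168.2 and 186.7 CPM, and the actin regulator gene Pfn2 at 124.8 and 197.8 CPM against 344.4 and 380.7 CPM. The semaphorin gene Sema6d stood at 170.7 and 63.03 CPM against 356.3 and 243.7 CPM and was lower in 3 of 4 pairs. The translation factor gene Eif3a stood at 112.4 and 46.9 CPM against 310.8 and 208.5 CPM. Log2 ratios of the 10 genes lay between -2.58 and -1.11. The genes were chosen for their small p, so their counts carry no weight beyond the values.

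**Figure D4:**
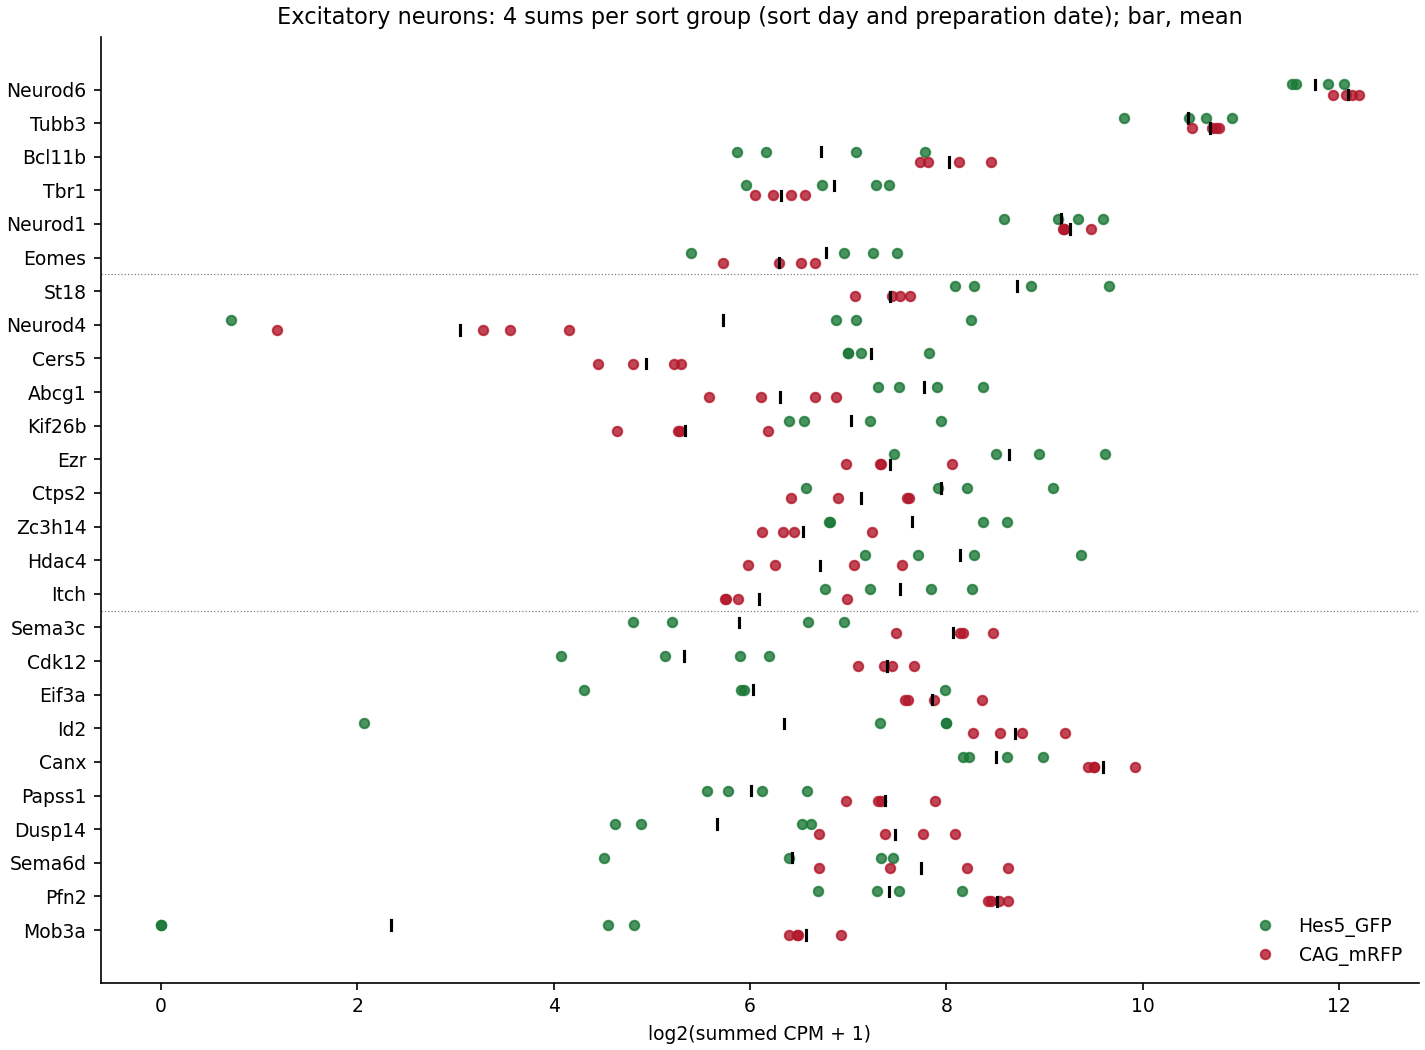
Summed level, as log2(CPM + 1), of 26 genes in excitatory neurons, with 4 sums per sort group (sort day by preparation date) and the mean as a bar; the dotted lines separate genes always given from the 10 higher and the 10 lower genes named by rule. St18, Cers5, Abcg1 and Kif26b have every Hes5_GFP sum above every CAG_mRFP sum, and Sema3c and Canx the reverse; Neurod4 has 1 Hes5_GFP sum of 0.641 CPM.

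Whether the differences belonged to neurons was tested against intermediate progenitors of the same days, as an interaction of group and class. Of 10118 genes, 0 were called (0.0%; edgeR's quasi-likelihood test, adjusted p under 0.05), and 4.05% had an unadjusted p under 0.05. Canx and Eif3a had the smallest p among the named genes: the EN log2 ratio less the IPC log2 ratio was -1.54 ± 0.32 and -2.02 ± 0.43 (adjusted p = 1; unadjusted p = 0.00321 and 0.00355). For St18 the difference was 1.90 ± 1.24 and for Neurod4 2.93 ± 1.37, and for Bcl11b and Sema3c it was -0.22 ± 0.49 and -0.16 ± 0.60, each with an adjusted p of 1. Over the maturing neuron genes the median of this difference was 0.74, against -0.30 for all genes, so their lower ratios were not larger in neurons than in IPCs. Without the 6 genes named earlier the median was -0.09. No group difference was therefore shown to be particular to neurons. Stress and mitochondrial genes, read as signs of cell quality, had medians near 0: -0.03 over 6 stress genes and 0.04 over 13 mitochondrially encoded genes. Mitochondrial reads took a median of 1.51% of a Hes5_GFP neuron's total and 1.63% of a CAG_mRFP neuron's.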

How the data were processed

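Single-cell libraries had been made with a modified Smart-seq2 protocol, per the labels' protocols, which has no molecular identifiers, so reads are not independent molecules and intervals cover counting error only. The authors deposited a table of expected counts (estimated counts per gene) for 16839 genes as whole numbers; back-calculation from the table they deposited as the natural log of 1 plus counts per 10000 showed that 2.49% of EN entries under 100 counts had been fractional (tolerance 0.01) and rounded. The mitochondrial share of each cell is a fraction in the authors' cell table, printed here as a percentage. HISAT2, Seurat 2 and mm10 stand in the submitters' processing notes; for counting tool, strand setting and annotation the entry is not given in the sources used here, so overlapping genes cannot be told apart. Sort group came from the label of each sample; class, cluster, phase and dates came from the authors' cell table. Each well held 1 sorted cell; no doublet caller was run and no cell was removed.

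Counts were summed over the ENs of a group on each day with at least 5 ENs of both groups, and the sums were tested with edgeR 4.0.16 in R 4.3.3 (TMM, quasi-likelihood, day as a block, at least 5 CPM in either group), adjusted by Benjamini-Hochberg over all genes. Days are taken as different embryos, an inference. Groups of one day were paired because they shared that day; over 5846 genes their deviations correlated with r = 0.12. Shares were compared by exact two-sided sign-flip tests in SciPy 1.17.1, also after thinning to 10000 counts, which left out 6 CAG_mRFP neurons of day 3. Unless thinning is named, shares of cells with a read are given without it. Alternatives used limma 3.58.1 (log2 of CPM + 1), DESeq2 1.42.0, other filters, scalings, units and subsets. Pairs by preparation date, plates as units and the fit without the shallowest plate were chosen after the data were seen, and so was the list without the 6 genes. The script was tested on simulated counts.

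Genes named were 13 always given; the 10 higher and 10 lower genes of smallest unadjusted p with at least 50 CPM, a read in at least 20% of ENs of either group and one sign on both days, without mitochondrial, ribosomal protein and numbered genes; and up to 4 members of each list with the most counts. List members outside that rule (Aldoc, Unc5d, Snap25, Rbfox1, Rbfox3, Ndst3, Chga, Dpysl3, Elavl4, Epha5, Cenpe and Cenpf) were named after their values were seen. Some list members with the most counts are not printed. The cells and gene lists were chosen with earlier results of these data known. Gene positions are from GENCODE on mm10.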

Additional observations from a re-analysis of the deposited data

Results flagged for a closer look

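For each named gene and cluster share, the 4 sums of a group were searched for a sum that stood apart from the other 3 by a gap above Dixon's 95% limit for 4 values. Of 72 groups of sums, 9 had one. The limit gives about 1 in 20 for independent values of normal spread. Some of these genes were chosen from the same sums and some were near 0, so no excess is read from the count. Values that stood apart in Hes5_GFP neurons were both in the earlier preparation of day 3: Hes5 at 5.63 CPM, with the other sums at 0, and Cers5 at 225.3 CPM, with the others at 126.6 to 139.1 CPM. In CAG_mRFP neurons, the later preparation of day 3 stood apart for Neurod1 (707.999 CPM, others 581.8 to 587.4), Mapt (31.3 CPM, others 19.98 to 21.9), Itch (125.6 CPM, others 52.7 to 57.9), Mob3a (120.5 CPM, others 83.6 to 88.9) and the share of cluster 5 (31.9%, others 42.9 to 43.3%). The later preparation of day 4 stood apart for Hes1 (4.65 CPM, others 0 to 0.131) and Canx (966.5 CPM, others 695.7 to 723.9). The Canx and Cers5 sums of the groups did not overlap, with or without these values.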

How the results depend on the processing

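DESeq2 called 788 genes where edgeR called 0; the cause was not tested, and limma, other filters and scalings, no replicate block (4.97% of genes at an unadjusted p under 0.05) and pairs (4.09%) or plates (6.19%) as units also called 0. The interaction with IPCs stayed at 0 calls with total counts as library size. The pairing was by sort day, and leaving out the replicate block changed no call. Cluster shares kept their direction over the alternatives for clusters 5 and 6; leaving out each day gave 15.1 to 24.6 points for cluster 6, -33.8 to -14.8 for cluster 5 and -0.28 to 9.15 for cluster 2. Pooled, the difference in cells outside G1 was 0.16 points. Without thinning or at 50000 counts, differences in cells with a read were 15.04 and 7.85 points for eGFP (9.79 as reported), 2.96 and 3.27 for Mapt (-2.14 as reported), 0.89 and -0.88 for Hes5, 23.9 and 24.8 for Eomes and 6.12 and 5.42 for Neurod1.

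The maturing neuron median was -0.96 with no filter, -0.42 with no replicate block, -1.01 and -1.13 without the plate batches L1 and L2 (named as on the plates), -1.13 in cluster 2, -1.70 with pairs and -1.03 with plates as units, and -0.95 to -0.70 leaving out each day. The newborn median was -0.47 without batch L1 and -0.36 to -0.14 leaving out each day; the IPC median was -0.33 in cluster 2 and -0.16 without cluster 6. Log2 ratios that changed sign were Sox9 with no replicate block (0.78), limma (0.17), pairs (0.26), without batch L2 (0.99) or day 4 (1.51); Mapt in cluster 2 (-2.57), with pairs (-0.46), plates (-0.11) or without day 3 (-0.22); Neurog2 in cluster 2 (-1.49), without cluster 6 (-0.0017), batch L2 (-0.25) or day 3 (-1.56); mRFP without batch L3 (-1.24) or day 3 (-0.26); Eomes without batch L3 (-0.18) or in cluster 2 (-0.15); Neurod4 in cluster 2 (-0.84) or without cluster 6 (-0.34); Tbr1 in cluster 2 (-0.28); Tubb3 without batch L3 (0.11); and Neurod1 without day 3 (0.20). Pooled levels in cluster 2 had the opposite sign for Neurod4 (14.99 CPM in Hes5_GFP against 6.61) and Neurog2 (34.1 against 8.67); the cause was not tested. Without one day no residual degree of freedom was left, so these are values with no test, and neurons of cluster 5 alone left 1 day and were not fitted. With 43 reporter-positive neurons on the tested days, and a single cell giving up to 15% of a sum, genes read in few cells are limited by depth.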

Other observations

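Day 2 entered no comparison, because it held 2 Hes5_GFP neurons beside 16 CAG_mRFP neurons. In those 16 neurons, sorted as lacking GFP, eGFP stood at 35.7 CPM, with a read in 8 of 16 cells (50%, 95% exact interval 24.7 to 75.3%). The CAG_mRFP neurons of days 3 and 4 held 5.45 and 2.03 CPM. The 2 Hes5_GFP neurons of day 2 held 12 eGFP counts (8.26 CPM), all in 1 cell. Hes5 in the day 2 CAG_mRFP neurons came from 1 cell (26.3 CPM of the sum).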
